A study of Mus musculus with 8 samples.

Results

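The primary cilium is a single antenna-like organelle that most resting vertebrate cells can build on their mother centriole. It has no ribosomes, so its proteins are carried in and out along the axoneme by intraflagellar transport (IFT). IFT-B trains moved by kinesin carry cargo towards the tip, IFT-A trains moved by cytoplasmic dynein carry it back, the BBSome links membrane proteins to the trains, and the transition zone at the base acts as a gate. Vertebrate Hedgehog (Hh) signaling runs through this organelle. When Hh ligand is bound, Smoothened enters the cilium and meets the Ellis-van Creveld proteins EVC and EVC2, which are held in a zone near the base by IQCE and EFCAB7. Blood cells are better known for dividing centrosomes than for cilia, and the arrays measured messenger RNA, not cilia.

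The 54 genes described here cover these parts, and they were taken from the 34797 gene names of the array by matching a list of gene symbols. All 54 were found, with 82 of the 55681 non-control probes. By role, 4 belong to the EvC zone complex, 10 to IFT-B, 2 to IFT-A and 5 to the ciliary motors. The BBSome and its assembly factors hold 10, the carriers and lipid enzymes of the ciliary membrane 4, the Hh regulators at the cilium 3, the centriole and basal body 3 and the transition zone 13. The question was whether the higher Evc and Evc2 signal of old cells came with a change of other ciliary genes. The list was drawn up with that Evc and Evc2 signal known, so their own values are the starting point and the result lies in the other 52 genes.

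Common myeloid progenitors (CMPs) of untreated wildtype C57BL/6J mice were compared between 2 ages, with 4 arrays each. The sample labels give 2-3 months for the young mice and 22-24 months for the old mice, while the design text of the series gives 3-4 and 22-26 months. The cells were sorted from bone marrow as lineage-negative, cKit+, Sca-1-, CD34+ and FcγR low cells, and each sample was hybridized alone to an Agilent mouse array in 1 dye. The study's methods name fewer mice per age than there are arrays, so whether all 4 arrays of an age are separate mice cannot be settled here, and p-values measure the spread between these samples.

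The 10 genes fixed as markers of the CMP gate and of myeloid progenitors, Kit, Cd34 and Mpo among them, were all well above background on all 8 arrays. The 75th percentile of the spot intensity was 352 to 565 on the young and 290 to 518 on the old arrays, and 55.6% to 63.2% of probes were well above background. Arrays of one age correlated at 0.969 to 0.992 and lay on 2 slides, each with 2 arrays of each age. Signals are given as log2 of the processed intensity minus the 75th percentile of the array, so that 0 is the level of a probe at that percentile, and levels of different probes are not compared. Testing needed a signal well above background on 4 or more of the 8 arrays, counted over both ages. This left 53 of the 54 members (98.1%, against 66.5% of all gene names), of which 48 were above background on all 8 arrays at their brightest tested probe. That probe represents the gene unless another is named.

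Because the Evc and Evc2 signals rest on single probes, the first 30 bases of each of their 60-base probes are shown with their position in the mm9 genome build that the array annotation uses. Evc lies on the minus strand and Evc2 on the plus strand of chromosome 5. The name gives the first base of the probe in the annotated transcript.
Evc base 4103, chr5:37690559-37690618: gctgttcttaggaaacacctctcgaggaac
Evc base 1797, chr5:37705605-37705664: acaggcagaccgattccgcagacgacagtg
Evc base 3245 of another transcript, chr5:37680729-37680788: catcaaatccctaggaccctacactggctc
Evc2 base 4036, chr5:37816219-37816278: aggaaggtgcagctctctattcttacaatg
Evc2 base 1726, chr5:37774357-37774416: gagcgtgcacagacagaaaccttttctata
The signals described next came from the probes at base 4103 of Evc and base 4036 of Evc2, the ones nearest to the 3′ end of their transcript among these. The other 3 were not well above background on any array.

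Evc and Evc2 encode membrane proteins that bind each other and pass the Hh signal on from Smoothened. Evc was at -6.77, -7.53, -6.68 and -7.01 on the young arrays 3 to 6 and at -1.52, -2.66, -2.39 and -1.98 on the old arrays 2 to 5. All 4 old arrays were above all young ones, and no young array was above background, so the probe passed the filter only through the old arrays. The level in young CMPs is therefore only bounded, and old CMPs were at least 7.0-fold higher (n = 4 and 4). The measured log2 difference was 4.86 (limma, adjusted p = 0.000174), but it rests on young signals below the background limit and describes a gene the list was built around, so the bound is the value to read. The size depends on how the background is taken off. When normexp replaced the background subtraction of the scanner software, the bound was 2.59-fold and the log2 difference 1.53, and in the deposited table of processed values the difference was 2.84. The Evc probes at bases 1797 and 3245 were below the background limit on every array, and their ages overlapped. Base 1797 was at -6.92 to -5.54 in young and -5.94 to -5.58 in old CMPs. Base 3245 of the other transcript was at -6.95 to -5.48 in young and -7.02 to -5.48 in old CMPs. No fold is given for them.

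Evc2 was at -3.92, -4.62, -5.06 and -4.27 on the young and at -0.86, -0.62, -0.60 and -0.0029 on the old arrays. The ages did not overlap here either, and the probe was above background on 3 of 4 young arrays. The log2 difference was 3.94 ± 0.28 SE, or 15.4-fold (limma, adjusted p = 0.000599, n = 4 and 4), and 2.29 with normexp; as for Evc, this is the signal the list started from. The second Evc2 probe was at -7.32 to -6.30 in young and -5.90 to -5.02 in old CMPs, below the background limit on every array, so no fold is given for it.

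**Figure D1:**
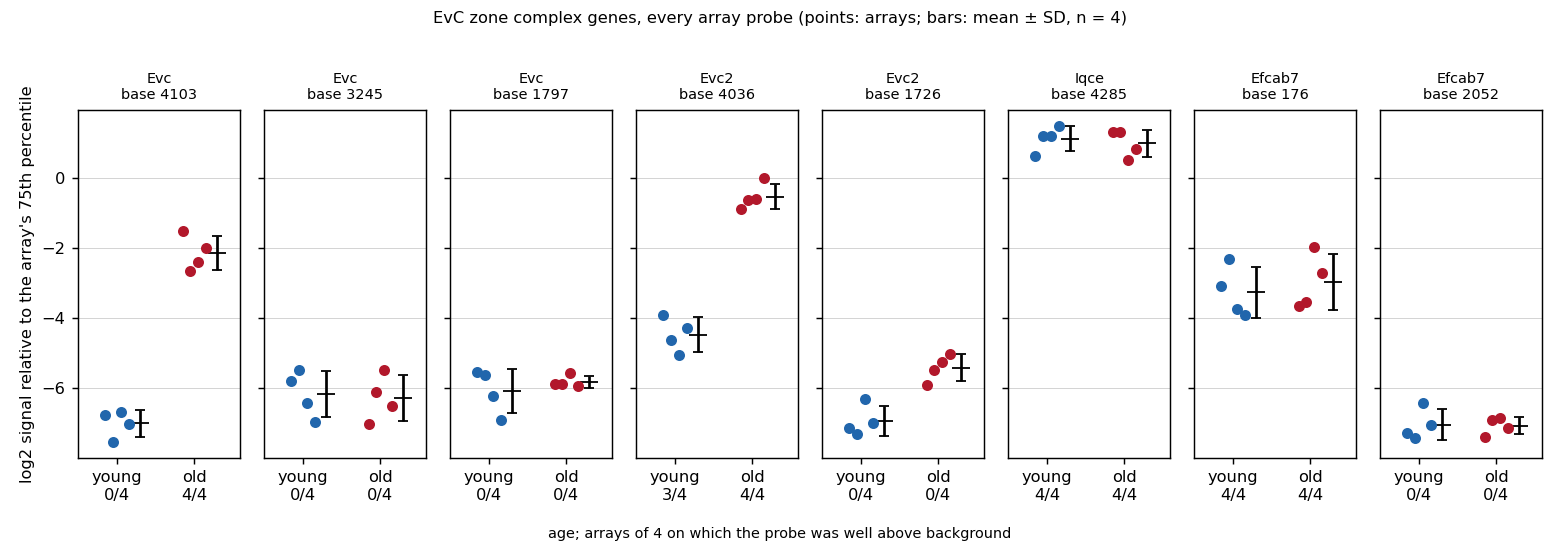
Log2 signal relative to the 75th percentile of the array (y axis) for all 8 probes of the EvC zone complex genes, with 1 point per array (young in blue, old in red) and the mean ± SD of 4 arrays as bars; under each age stands the number of arrays above background. The ages separate at Evc base 4103, from -7.53 to -6.68 in young to -2.66 to -1.52 in old, and at Evc2 base 4036. They also separate at Evc2 base 1726, which is below the background limit on every array. The other Evc probes, Iqce and Efcab7 overlap. Levels of different panels are not comparable.

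The genes that anchor the EvC proteins were not called, and their arrays overlapped between the ages. Iqce, whose product holds EVC and EVC2 in their zone, was at 0.64 to 1.5 in young and 0.53 to 1.33 in old CMPs. Its log2 difference was -0.13 with a 95% interval from -0.70 to 0.44. Efcab7, the partner of IQCE, was at -3.91 to -2.31 in young and -3.66 to -1.95 in old CMPs, with a difference of 0.30 and a wider interval, -0.71 to 1.30. For Efcab7 the interval still holds a change of more than 2-fold.

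Evc and Evc2 are neighbors that point away from each other. In the RefSeq annotation of the GRCm38.p6 build, from which a promoter was found for 47 of the 54 members, their starts lie 1597 bases apart on chromosome 5. The 250 bases before each start are shown because the pair rose together and share this stretch of genome; capitals mark each CpG, the dinucleotide that carries DNA methylation.
Evc, chr5:37336882-37337131, minus strand: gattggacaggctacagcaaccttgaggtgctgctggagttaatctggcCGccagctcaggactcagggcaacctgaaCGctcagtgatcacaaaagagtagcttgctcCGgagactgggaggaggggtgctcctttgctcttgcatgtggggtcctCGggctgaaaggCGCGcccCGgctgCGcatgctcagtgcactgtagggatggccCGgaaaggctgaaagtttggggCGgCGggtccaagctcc
Evc2, chr5:37338228-37338477, plus strand: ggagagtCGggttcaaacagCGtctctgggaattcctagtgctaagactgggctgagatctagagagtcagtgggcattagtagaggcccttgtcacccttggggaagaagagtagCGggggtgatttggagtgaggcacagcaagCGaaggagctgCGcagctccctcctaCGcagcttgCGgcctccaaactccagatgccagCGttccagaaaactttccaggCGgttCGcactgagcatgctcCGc
With the 50 bases after the start included, the Evc window held 62.7% G and C and 16 CpGs, and the Evc2 window 61.0% and 19 CpGs, against medians of 52.7% and 7 over all 32851 promoters. Of all promoters, 76.9% held less G and C than the Evc window and 73.1% less than the Evc2 window, so many others are richer. The genes around the pair were looked at next. Of 14 listed genes with a probe within 1 Mb of the pair, 9 were tested and none was called, with a median log2 difference of -0.03. The one whose ages did not overlap, Jakmip1, was lower in old CMPs (-0.62 ± 0.22 SE, adjusted p = 0.570 by limma). Of all tested genes, 3.2% were higher and 1.66% lower without overlap.

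Over the whole list, 2 of the 53 tested members were called higher in old CMPs at an adjusted p under 0.05 and at least 1.5-fold. These were Evc and Evc2, the genes the list started from. Of the other 51 tested members, 0 were called higher, where 0.207% of all 23155 tested genes were. No member was called lower, where 0.0432% of all genes were. Leaving out Evc and Evc2, the unadjusted p of limma was under 0.05 for Bbs12, higher, and Cep164, lower. All genes had 3.96% higher and 2.66% lower by that measure. Cep164 was also the only further tested member whose ages did not overlap, against 3.2% of all genes higher and 1.66% lower in every old array.

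The 51 tested members other than Evc and Evc2 had a median log2 difference of 0.05, with 29 above and 22 below 0. The median of all tested genes was -0.01, and 47.6% of them were above 0. A change of at least 1.5-fold either way was seen in 1 of the 51, Cep164, whereas 8.68% of all tested genes reached that size. The 95% interval lay within a 2-fold change either way for 41 of the 51 and within 1.5-fold for 16, so that smaller changes of single genes were not detectable with these arrays. When each gene was centred on its own mean, the median over these 51 was -0.12, 0.14, -0.08 and 0.03 on the young arrays 3 to 6 and 0.12, 0.03, -0.03 and 0.01 on the old arrays 2 to 5. The ages overlapped, and young 4 had the highest median of all 8 arrays. Counts over all 53 moved when an array was left out. The share of all genes without overlap rose as well, with 3 against 4 arrays. Without young 4, 9 members instead of 3 did not overlap (17.0%), and the share of all genes went from 4.86% to 7.54%. There 6 members instead of 3 were higher with an unadjusted p under 0.05 by limma. The share of all genes by that measure went from 3.96% to 3.53%. The cause was not tested. Without old 4, 8 members did not overlap, against 9.97% of all genes, and without old 5, 5 members, against 7.4%.

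**Figure D2:**
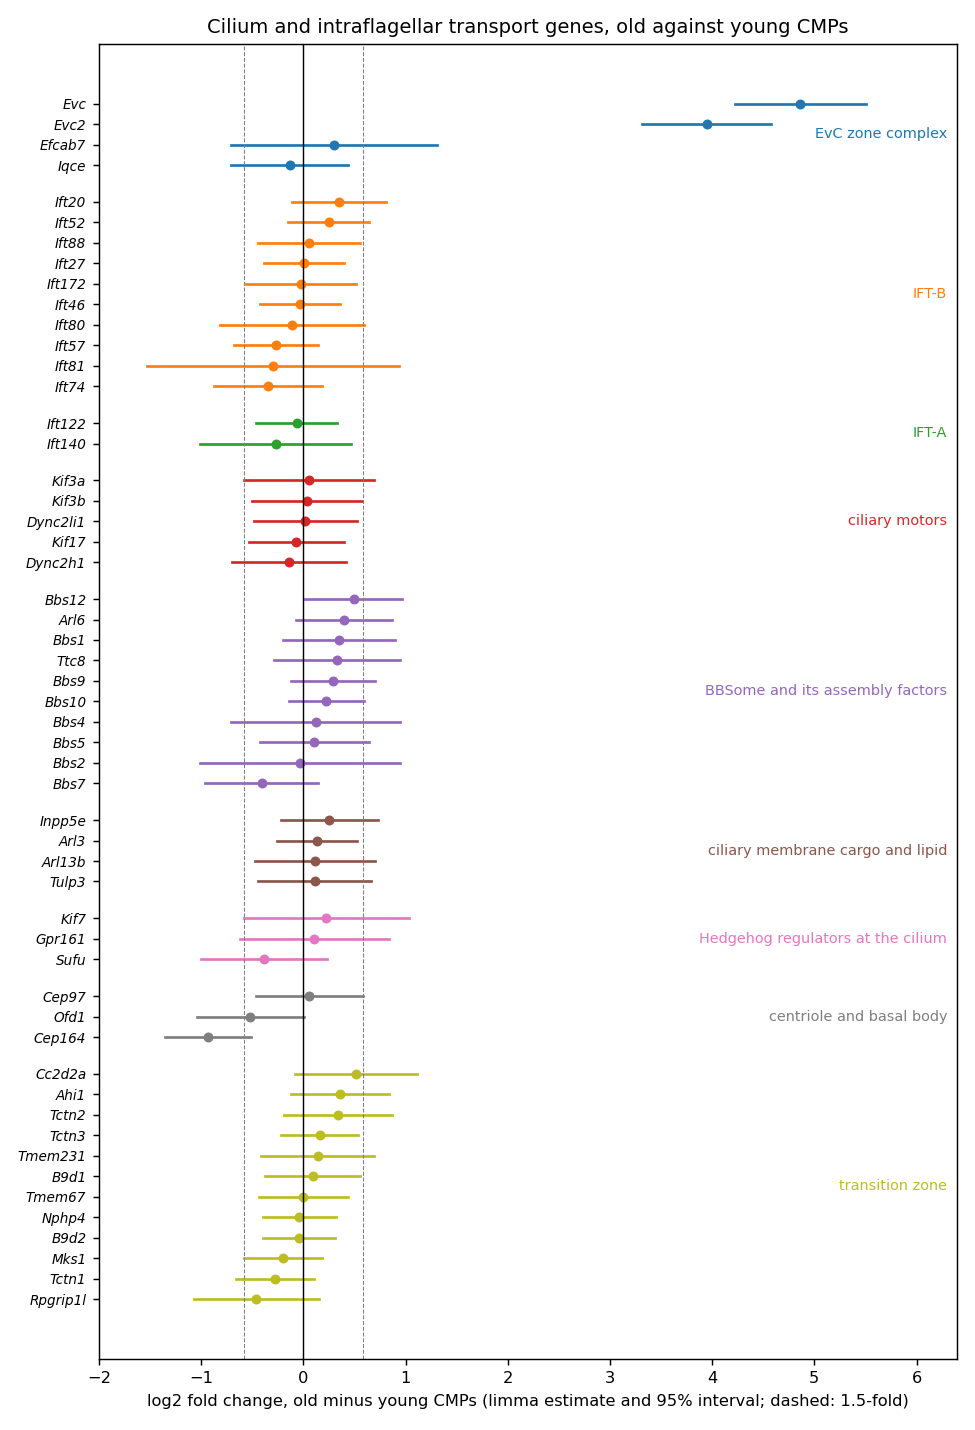
Log2 difference between old and young CMPs (x axis) for the 53 tested members at their brightest tested probe, grouped by role, as the limma estimate with its 95% interval from 4 arrays per age; dashed lines mark 1.5-fold. Evc and Evc2 stand at 4.86 and 3.94, Cep164 at -0.93, and the other 50 lie between -0.52 and 0.51.

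None of the 10 IFT-B genes was called or separated the ages, and their log2 differences ran from -0.34 to 0.35 around a median of -0.03. The largest were in Ift20, which also carries cargo from the Golgi (0.35, interval -0.11 to 0.81), and in Ift74, part of the tubulin-binding module with Ift81 (-0.34, interval -0.87 to 0.19). Ift20 was at 2.65 to 3.35 in young and 3.16 to 3.60 in old CMPs, and Ift74 at -1.01 to -0.36 in young and -1.26 to -0.59 in old CMPs. Ift88, whose loss abolishes cilia in many mouse tissues, was at -0.57 to 0.42 in young and -0.08 to 0.09 in old CMPs with a difference of 0.06, and its 95% interval, -0.44 to 0.56, lay within 1.5-fold. Ift81 was above background on 2 arrays of each age and had the widest interval of the list, from -1.53 to 0.94. The IFT-A genes Ift122 and Ift140 differed by -0.07 and -0.27, and their arrays overlapped.

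No motor gene was called, and the arrays of all 5 overlapped at the brightest probes. Kif3a and Kif3b, which encode the heterotrimeric kinesin that drives IFT-B trains, differed by 0.05 and 0.04. Dync2h1, the heavy chain of the return motor, was at -2.52 to -1.58 in young and -2.54 to -2.03 in old CMPs (difference -0.15), and its light intermediate chain Dync2li1 differed by 0.02. Kif17, a kinesin with cargo roles in some cilia, had 3 tested probes that did not give the same size. Its brightest, at base 3367, differed by -0.07, the one at base 3060 by -0.25 and the one at base 1808, which is annotated to another transcript, by -0.84 ± 0.25 SE (unadjusted p = 0.00706 and adjusted p = 0.365 by limma). That probe was at -0.81 to -0.14 in young and -1.78 to -0.79 in old CMPs, so the ages overlapped by 1 array on each side.

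Of the 10 genes of the BBSome and its assembly factors, 8 had a difference above 0, the median was 0.26 and none was called. Bbs12, which belongs to the chaperonin complex that assembles the BBSome, was at 0.76, 1.59, 0.94 and 1.21 in young and 1.82, 1.64, 1.56 and 1.45 in old CMPs. Its old arrays were above 3 of the 4 young ones, and the difference was 0.49 ± 0.21 SE (limma, unadjusted p = 0.0451, adjusted p = 0.767). The GTPase Arl6, which recruits the BBSome to membranes, gave 0.40 and 0.37 at its 2 probes, with an interval at the first from -0.07 to 0.87. Bbs7, a core subunit, went the other way at both of its probes, -0.41 and -0.35. Bbs1, the subunit that ARL6 binds, gave 0.35 at 1 probe and -0.07 at the other. No BBSome gene other than Bbs12 had an unadjusted p under 0.05.

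All 4 genes of the ciliary membrane group had differences above 0 at their brightest probe, from 0.11 to 0.25, and none was called. Inpp5e, the phosphatase that keeps the lipid composition of the ciliary membrane, had the largest at its brightest probe. Its 3 probes gave 0.25, 0.11 and 0.89, and the last rested on old 2, at 0.58 against -2.62 to -0.98 on the other old arrays. Arl3, the GTPase that releases lipidated cargo in the cilium, was at 0.56 to 0.65 in young and 0.48 to 1.04 in old CMPs (0.13), while Arl13b and Tulp3 gave 0.11 each. The second Arl13b probe went the other way, at -0.13.

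No Hh regulator of the cilium was called, and the arrays of all 3 overlapped. Sufu, which holds the GLI factors back, was at -2.93 to -1.72 in young and -3.11 to -2.38 in old CMPs, with a difference of -0.38 (interval -1.0 to 0.23), while its second probe gave -0.01. Kif7, the kinesin that organizes the ciliary tip, differed by 0.23 with old 4 at -4.08 against -3.24 to -2.25 on the other old arrays. Gpr161, a receptor that keeps protein kinase A active in the cilium, differed by 0.11.

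Cep164 was the only one of the 51 genes whose ages did not overlap. Its product forms the distal appendages by which the mother centriole docks to the membrane before a cilium can grow. At its brightest probe, Cep164 was at 1.35, 1.38, 1.67 and 1.65 on the young and 0.74, 0.82, 0.44 and 0.32 on the old arrays. Every old array was below every young one, and the log2 difference was -0.93 ± 0.19 SE (limma, unadjusted p = 0.000629, adjusted p = 0.126), which misses the threshold over all genes. Within the slides it was -0.77 and -1.09. The adjusted p was 0.0451 with normexp and 0.0495 with array weights, where Cep164 was called, and lay between 0.199 and 0.305 when each array was left out in turn.

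The 3 Cep164 probes lie on the minus strand of chromosome 9 (mm9), and their first 30 bases are shown because 2 of them share sequence.
Cep164 base 449, chr9:45617851-45617910: tcgaaagttggtcatccaggagagggagag
Cep164 base 5238, chr9:45575219-45575278: ccacagggtctcaccgatttattgttcgtt
Cep164 base 5262, chr9:45575195-45575254: ttcgtttctttgctgtggaataaacctcga
The probes at bases 5238 and 5262 overlap by 36 bases and are not independent, while the brightest lies at the other end of the transcript. They gave -0.57 (unadjusted p = 0.0315) and -1.03 (unadjusted p = 0.0091) by limma. All 3 probes were lower in old CMPs, and the 2 overlapping ones had young and old arrays in common range, from 0.08 to 0.66 against -0.59 to 0.20 and from -1.29 to -0.25 against -2.28 to -1.10. Of the other centriole genes, Ofd1, a centriolar satellite and distal centriole protein gene, was at 0.48 to 0.81 in young and -0.36 to 0.60 in old CMPs. Its difference of -0.52 (interval -1.04 to 0.0035) came with old 2 and old 3 lowest. Cep97, whose product caps centrioles and holds back cilium growth, differed by 0.06.

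**Figure D3:**
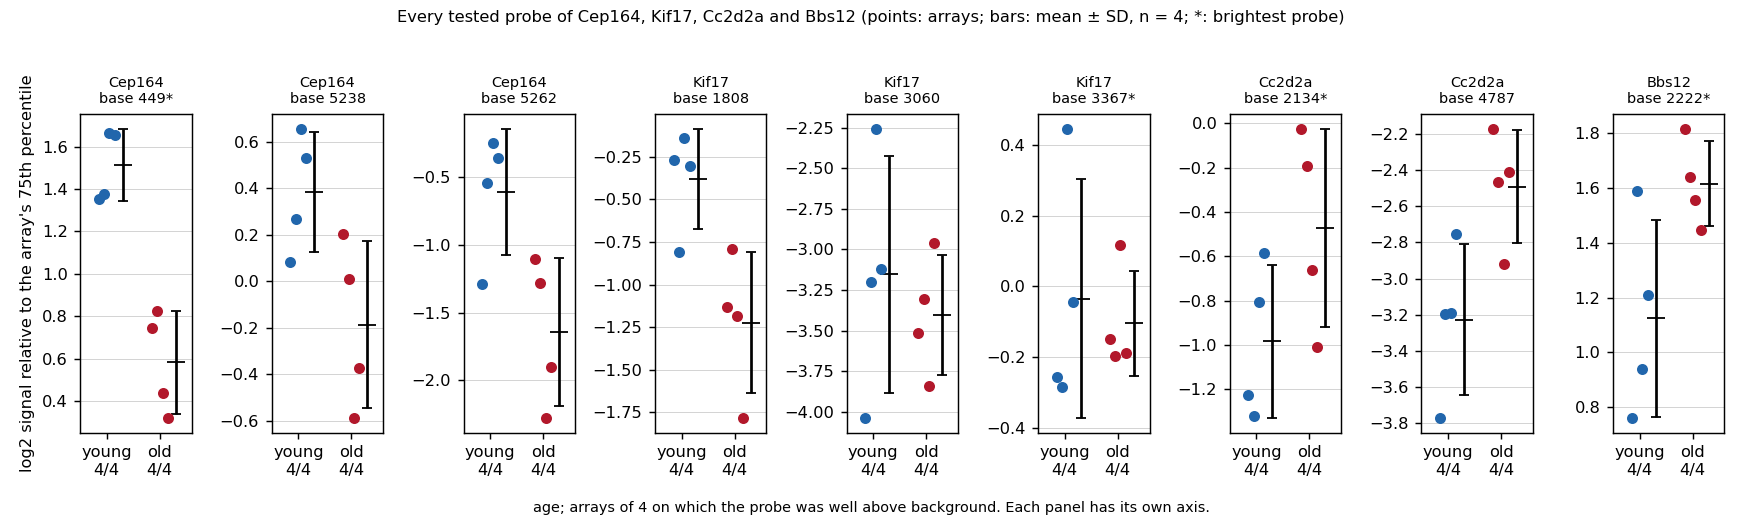
Log2 signal relative to the 75th percentile of the array (y axis, own scale per panel) at every tested probe of Cep164, Kif17, Cc2d2a and Bbs12, with 1 point per array (young in blue, old in red) and the mean ± SD of 4 arrays as bars. The ages separate at Cep164 base 449, with young at 1.35 to 1.67 and old at 0.32 to 0.82, and overlap at every other probe shown.

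The transition zone held 12 tested genes, 6 above and 6 below 0, with a median log2 difference of 0.05. Cc2d2a, a scaffold of the gate, was the highest at 0.51 (interval -0.09 to 1.11). Its second probe was at -3.77, -3.20, -3.19 and -2.75 in young and -2.17, -2.47, -2.92 and -2.41 in old CMPs, a difference of 0.73 ± 0.25 SE (limma, unadjusted p = 0.0159, adjusted p = 0.516). The arrays overlapped at both probes, which had the same direction. Rpgrip1l, an anchor of the NPHP and MKS modules, was the lowest at -0.46, with old 2 and old 3 at -3.52 and -3.56 and the other old arrays in the young range. The MKS module genes B9d1, B9d2 and Mks1 differed by 0.09, -0.04 and -0.20, Tmem67 differed by less than 0.01, and none of them separated the ages.

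Cep290, which bridges microtubules and membrane in the transition zone, was the one member not tested. Its single probe was above background on 3 young and no old arrays. It was at -1.90, -4.81, -4.65 and -4.65 in young and -5.27, -5.14, -5.24 and -5.86 in old CMPs. All young arrays were higher than the old ones, and with the old arrays at their bound young CMPs were at least 1.94-fold higher. That bound rests on young 3 and was 1.19-fold without it.

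**Figure D4:**
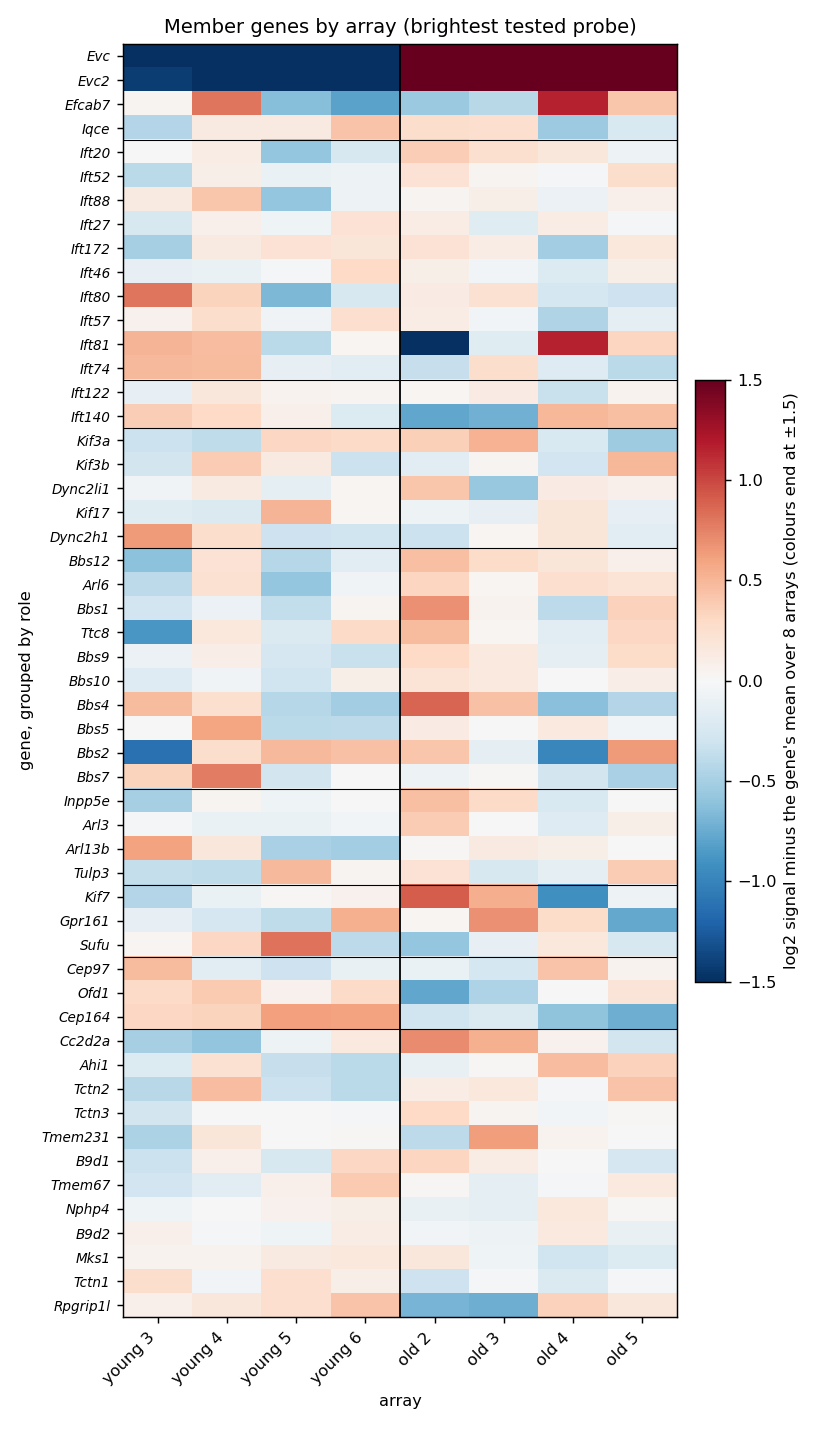
Log2 signal of each tested member minus its mean over the 8 arrays, as color (blue lower, red higher, ends at 1.5 either way), with genes in rows grouped by role and arrays in columns. Evc, Evc2 and Cep164 change color between the young and old columns, and the remaining rows are mixed, the pattern behind the 2 called genes and the median of 0.05 in the other 51.

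For 18 members more than 1 probe was tested, and for 13 of them all probes had the same direction. Leaving out the Evc and Evc2 probes, 6 of 73 tested member probes had an unadjusted p under 0.05 by limma (8.22%, against 6.35% of all tested probes), and 3 of these 6 were the Cep164 probes, 2 of which share bases.

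The X-box, the site of the RFX transcription factors that switch on many ciliary genes, was searched in the RefSeq promoters (250 bases before to 50 after the start, GRCm38.p6) on both strands, with a spacer of at most 3 bases between its arms. It was found for 8 of the 47 members with a promoter (17.0%) and for 1.75% of all 27025 genes. The sequences are shown to let the matches be read, with the X-box in capitals and the gene's own strand from left to right.
Kif17, chr4:138262170-138262198: tcacggagGTTGCCCAGCAACggcgaacg
Ift57, chr16:49699226-49699254: gccctgcgGTTGCCTGGTAACggtgggga
Tctn3, chr19:40612351-40612379: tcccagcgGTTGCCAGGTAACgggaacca
Tctn2, chr5:124598679-124598708: gattggagGTTACCATGGCTACtggtcctc
Tctn1, chr5:122264411-122264432: ctgtgactGTTGCCCGGGCAAC
Ahi1, chr10:20952560-20952589: tagtctgaGTTACCTAGGCAACagcggcag
B9d2, chr7:25680788-25680817: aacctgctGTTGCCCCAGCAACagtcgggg
Bbs1, chr19:4906605-4906634: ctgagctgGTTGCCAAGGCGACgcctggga
Neither Evc nor Evc2 had a match in this window. The log2 differences of the 8 genes ran from -0.28 in Tctn1 to 0.36 in Ahi1, 4 above and 4 below 0, with a median of 0.06, and none was called. The GLI site TGGGTGGTC was in 0.253% of all promoters and in none of the 54 promoters of the 47 members. At so low a share no match was likely in so few promoters, so nothing is concluded from this.

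Ciliary genes outside the list were looked at in the same way. Of 63 further genes on the array, structural ones together with RFX factors and kinases such as Ttbk2, 59 were tested. None was called, and the median log2 difference was 0.01. The ages did not overlap in 4 of them, 2 in each direction, against 3.2% higher and 1.66% lower of all genes. Tmem216, a transition zone gene, and Mkks, a BBSome chaperonin gene, were higher (0.42 and 0.31), and Ccdc41, now named Cep83 and a distal appendage gene like Cep164, and Rabl5, now named Ift22, were lower (-0.53 and -0.26). Their adjusted p ran from 0.672 to 0.973 by limma. The cilium disassembly genes, the Aurka and Plk1 kinases among them, were below 0 in 11 of 15 cases with a median of -0.09, none called. Of 29 genes of motile cilia, which CMPs would not be thought to carry, 17 were tested, none was called, 8 were not above background on any array, and the median was 0.02.

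The Hh pathway outside the list held no called gene. Of its 29 genes on the array, 23 were tested, none separated the ages, and the median was 0.06. Ptch1, the receptor and a target gene of the pathway, differed by 0.07 ± 0.24 SE, and Smo, the transducer that EVC and EVC2 bind, by 0.11 ± 0.23 SE. Gli3 differed by 0.33 ± 0.26 SE, and Gli1, Gli2, Hhip, Shh and Dhh were not tested because too few arrays were above background.

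Marker genes of other cells moved with age in the same samples. Over all tested genes, 3.2% were higher and 1.66% lower without overlap. Of 12 tested markers of hematopoietic stem cells (HSCs), 8 were higher in old CMPs, 5 of them without overlap. The other 4 were lower, and Ly6a was lower without overlap (-0.73). The summed signal of the list was 32.3 to 44.4 in young and 63.8 to 74.3 in old CMPs, in units of the 75th percentile. Hoxb5 was called (1.85 ± 0.20 SE, adjusted p = 0.00708 by limma), and Esam and Pdzk1ip1 were the next largest of those without overlap (1.23 and 1.02). Of 15 megakaryocyte markers, 14 were higher and 11 did not overlap, with Gp9 called (1.21 ± 0.17 SE, adjusted p = 0.0327) and the sum at 128 to 234 in young and 308 to 404 in old CMPs. Neither sum overlapped between the ages, as with Evc and Evc2, and the part of these cells in the Evc and Evc2 signal was not tested. In such bulk samples a change in the number of cells that hold a transcript cannot be told apart from a change per cell.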

How the data were processed

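The data are 8 Agilent one-color arrays (G3 Mouse 8x60K) of sorted CMPs, 4 per age. Per the labels, Cy3-labeled cRNA was made with the Low Input Quick Amp kit, and the submitters' processing notes name Agilent Feature Extraction 10.7.3.1. The deposited scanner files give each spot's processed intensity, background-subtracted and detrended by that software, with its quality flags. The series table that the authors deposited holds log2 values processed further in their own workflow and served as an alternative only.

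From the intensity of the 59305 non-control spots, log2 minus the 75th percentile of each array was computed. Spots flagged as non-uniform or population outliers were left out (141 to 230 per array), no spot was saturated, and spots of a probe were averaged. Probes well above background on at least 4 of 8 arrays were tested, which gave 33476 probes and 23155 gene names. Ages were compared with limma 3.58.1 (lmFit and eBayes, R 4.3.3, Benjamini-Hochberg over all tested probes), and calls needed an adjusted p under 0.05 and at least 1.5-fold. A gene was represented by its brightest tested probe. A probe above background on no array of one age gave a lower bound of the fold, with each such array at its own value or, if higher, at the dimmest signal that still counted as well above background there. The script was tested on simulated data.

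The members, gene lists, tests and alternatives were chosen with earlier results of these data known, so no p is given for the list as a whole. The genes named were the EvC genes, members called, nominal or without overlap at a tested probe, the 2 largest differences of each role, and, from each other list, the called genes and at most 4 without overlap, by size. Other genes (Ift88, Ptch1, Smo, Gli3, Ly6a and further members of each role) were named for their function after their values were seen, and 1 gene that this rule covers is not reported here. Lists of other ciliary, disassembly, motile cilium, Hh and neighboring genes and of markers of 8 cell types were counted. On the neighbor list, 2 names whose probes lay farther than 1 Mb away or on another chromosome were left out after the files were seen. RefSeq promoters (GRCm38.p6) were used for sequence only, and array coordinates are mm9. Alternatives were background correction, normalization, the deposited table, filters, probe choice, tests, blocks and leaving out each array. With arrays there is no read depth, and precision is set by how many arrays there are and by how far signals exceed background.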

Additional observations from a re-analysis of the deposited data

Results flagged for a closer look

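Within the 4 arrays of each age, the highest or lowest array of each of the 53 tested members was checked against the others by Dixon's 95% limit. Of 106 groups of 4 arrays, 6 held an array beyond it, and chance gives about 1 in 20. In young CMPs, Bbs2 was at -4.46 on young 3 (others -3.07 to -2.86), Ift172 at -0.89 on young 3 (others -0.25 to -0.17) and Tctn3 at -1.44 on young 3 (others -1.19 to -1.16). Tctn2 was at -1.16 on young 4 (others -2.04 to -1.95). In old CMPs, Ift172 was at -0.92 on old 4 (others -0.28 to -0.18) and Kif17 at 0.12 on old 4 (others -0.20 to -0.15). None of these 5 genes was called or separated the ages.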

How the results depend on the processing

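Evc and Evc2 were higher in old CMPs under every alternative in which they were tested, by 1.53 to 5.04 and 2.29 to 4.13 on the log2 scale, and were called in all but 1. Both are genes the list was built around, and the Evc probe passed the filter only through the old arrays. These values therefore describe the starting point. The study's methods name Welch's t-test for unpaired samples in general, but no test for the arrays. With that t-test and adjustment, the adjusted p was 0.0675 for Evc (4.86) and 0.0907 for Evc2 (3.94), and 0 members were called higher, as of all genes. The count was also 0, with 1 member nominally higher and 1 without overlap, when probes had to be above background on all 8 arrays, a filter that leaves out Evc and Evc2. Of all genes, 3.99% were nominally higher and 4.93% did not overlap there. Without adjustment, by limma or the t-test, 3 members were called higher (Cc2d2a besides) and 2 lower (Cep164 and Kif17). Of all 23155 tested genes, 779 were then called higher and 631 lower by limma, and 591 and 359 by the t-test. Cep164 alone was called lower with normexp and with array weights, 1 member each. Of all genes, 21 and 88 were called lower there.

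Members nominally lower numbered 2 instead of 1 with quantile normalization, the deposited table, no filter, the filter on all 8 arrays, the mean of probes, both t-tests and the intensity trend with robust variances, and 3 with array weights, which gave 6 nominally higher. Of all genes, 2.14% to 2.85% were nominally lower under the settings that gave 2 members. With array weights 7.7% of all genes were nominally lower and 6.38% higher. Leaving out each array gave 2 to 6 nominally higher (6 without young 4), 1 to 3 nominally lower (3 without old 4, 2 without young 5 or old 5) and 3 to 9 without overlap. The shares of all genes were 2.99% to 3.98% higher, 2.03% to 5.72% lower (5.72% without old 4) and 6.07% to 9.97% without overlap. The median of the members was 0.17 after a shift to the array median, which put the median of all genes at 0.10 (-0.01 before), and 0.0014 to 0.09 with an array left out. Kif17 at its brightest probe, not called under any of these but the unadjusted tests at another probe, was 0.048 after that shift and -0.15 to 0.090 with an array left out (above 0 only without young 5). The causes were not tested.

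Same-numbered young and old arrays deviated from their age's mean with correlations of -0.09, -0.14 and 0.15. Differently numbered arrays gave -0.26 to 0.37. These values show no pairing by number, but so few pairs cannot exclude one. With the replicate block, Evc differed by 4.65 (adjusted p = 0.00374 by limma), Evc2 by 4.12 (0.0182) and Cep164 by -0.94 (0.964), and 2 members were called higher. With the slide as a block the 2 calls, Evc and Evc2, had adjusted p of 0.00074 and 0.00179 by limma. The list started from these genes, so their calls are not a result about the list. The signal over background limits Evc in young CMPs and Cep290 in old CMPs to bounds.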

Other observations

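Markers of other cell types give the setting of these values. Over all tested genes, 3.2% were higher and 1.66% lower in old CMPs without overlap. Of 10 CMP and myeloid progenitor markers, 9 were lower in old CMPs and none was called, with a summed signal of 897 to 1183 in young and 697 to 808 in old CMPs. Mpo and Gfi1 did not overlap between the ages (-0.59 and -0.51 on the log2 scale). Of 7 tested markers of mature granulocytes and monocytes, 5 were lower, and the sum was 174 to 184 in young and 98.6 to 145 in old CMPs; Ltf, Ly6g and Ngp were not tested. Ly6c1 and Csf1r did not overlap (-1.52 and -0.57).

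Erythroid markers were mixed, 4 of 9 higher, with Aqp1 and Car2 above without overlap (1.14 and 0.63) and the sum at 43.5 to 88.4 in young and 67.2 to 98.4 in old CMPs. All 6 tested lymphoid markers were lower with overlap (sum 17.0 to 23.0 and 15.4 to 20.1), and Ms4a1 and Pax5 were not above background on any array. Of 7 endothelial markers, 6 were higher and Tie1, Emcn and Robo4 did not overlap (1.01, 0.96 and 0.71), with sums of 19.9 to 24.7 and 21.5 to 26.1; Cdh5, Flt4 and Sox18 were not tested. Stromal and osteoblast cells, which build cilia in bone, were represented by 9 tested markers with 3 higher and sums of 14.7 to 19.1 and 12.1 to 21.6. Pdgfra and Prrx1 were not above background on any array, Col1a1, Col3a1 and Twist1 were not tested, Col1a2 was higher without overlap (1.22) and Runx2 lower without overlap (-0.26).

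On the megakaryocyte list, Ppbp, Pf4, Mmrn1 and Gp5 had the largest differences without overlap (1.77, 1.36, 1.25 and 1.23), none of them called. On the HSC list, Ly6a, which encodes the Sca-1 antigen that the sort selects against, was the one marker below without overlap (-0.73).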
